A study of Mus musculus with 6 samples.

Results

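The insulin-like growth factor (IGF) axis was described in primary mammary fibroblasts cultured from fat pads of healthy female mice, which were either BALB/c or C57BL/6 (2 inbred strains). Its 9 members were taken by gene symbol from a count table of 12023 genes: the ligand gene Igf1, the receptor genes Igf1r and Igf2r, and the binding protein genes Igfbp2, Igfbp3, Igfbp4, Igfbp5, Igfbp6 and Igfbp7. Of these, 8 were in the table and all 8 passed the filter on low counts. Igf1 was not analysed here, so nothing below bears on the amount of that ligand. Each strain gave 3 biological replicates from mice whose age is given as 8 to 12 weeks in one protocol and as 8 weeks in another. No treatment or genetic change is named for either strain, and cells of both were cultured for 4 days on collagen-coated plates before RNA was taken. The comparison is of the strains at baseline, after a magnetic separation of cells whose target the labels do not give. Values of a strain are always given in the order of its replicates 1, 2 and 3.

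IGF1 and IGF2 are small secreted growth factors that signal through the tyrosine kinase IGF1R to the PI3K and AKT pathway. IGF2R, which is also the cation-independent mannose 6-phosphate receptor, takes up IGF2 for degradation and sorts enzymes to lysosomes. The IGF binding proteins are secreted, hold IGFs in the extracellular space, and are cut by proteases that free the ligand. In the mammary gland the stroma is a known source of IGFs and of binding proteins, and IGFBP5 is known for its increase in the involuting gland. IGFBP7 is a relative of the classical binding proteins that binds IGFs with low affinity and is found in the matrix around vessels and stroma.

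The binding protein genes are related, and their coding sequences show how Igfbp7, which carried most of the counts, stands to the others. The stretch shown is 18 codons, or 54 bases, of exon 1 that code for part of the amino-terminal IGF-binding domain, with every cysteine codon in capitals and the rest in lower case, 5′ to 3′ on the coding strand. The sequences come from GENCODE release M21 on GRCm38, which is the assembly named mm10 in the submitters' processing notes.
Igfbp2: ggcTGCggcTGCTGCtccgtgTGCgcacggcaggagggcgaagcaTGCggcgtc
Igfbp3: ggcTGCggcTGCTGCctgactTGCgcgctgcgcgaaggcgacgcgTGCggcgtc
Igfbp4: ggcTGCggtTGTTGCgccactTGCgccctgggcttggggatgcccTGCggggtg
Igfbp5: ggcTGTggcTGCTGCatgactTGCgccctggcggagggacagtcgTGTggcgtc
Igfbp6: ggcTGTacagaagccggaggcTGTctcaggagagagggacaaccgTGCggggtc
Igfbp7: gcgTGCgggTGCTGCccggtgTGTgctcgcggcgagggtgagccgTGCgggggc

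Igfbp7 shared the 5 cysteine codons of Igfbp2, Igfbp3, Igfbp4 and Igfbp5 in this stretch, while Igfbp6 had 3. Over the whole protein Igfbp7 was the most distant. Its coded protein was identical to those of the other 5 genes at 23.9% to 32.3% of aligned positions, against 36.7% to 46.2% in the 10 pairs among Igfbp2 to Igfbp6. The stretches lie at chr1:72824778-72824831 on the plus strand (Igfbp2), chr11:7213536-7213589 on the minus strand (Igfbp3) and chr11:99041650-99041703 on the plus strand (Igfbp4). Those of the remaining genes lie at chr1:72873936-72873989 on the minus strand (Igfbp5), chr15:102144716-102144769 on the plus strand (Igfbp6) and chr5:77407796-77407849 on the minus strand (Igfbp7).

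The libraries were made from transcript 3′ ends, so a read stands for the end of a transcript and levels of different genes are compared here as CPM (counts per 1e+06 counts of the library after TMM scaling) without division by length. Total counts ran from 1035485 to 4665896 per library, and 3 counts equal 0.612 CPM in the deepest and 2.90 CPM in the shallowest. C57BL/6 replicate 1 stood apart, with a mean correlation of 0.779 to the other libraries across genes against 0.870 to 0.910 for the rest. It also had the fewest genes above 0 counts, 10798 against 11494 to 11989. Of 12 fibroblast markers 11 were in the table. They summed to 1.20%, 0.474% and 0.823% of all counts in the BALB/c libraries and to 0.217%, 1.29% and 0.640% in those of C57BL/6. The fibroblast gene Lum was not analysed here. Of 16 mammary epithelial markers 14 were in the table, and they summed to 0.211%, 1.26% and 0.947% of all counts in BALB/c replicates 1, 2 and 3 and to 1.68%, 0.327% and 1.12% in C57BL/6 replicates 1, 2 and 3, each with an exact 95% counting interval of at most ± 0.0204 percentage points. BALB/c replicate 1 and C57BL/6 replicate 2 thus held less epithelial RNA than the other 4 libraries, 1 in each strain. In those other 4 libraries the epithelial sum was above the fibroblast sum. C57BL/6 replicate 1 had the highest epithelial and the lowest fibroblast sum. The levels below are therefore those of whole cultures, and not of fibroblasts alone. Summed markers of macrophages and leukocytes reached at most 0.108% of counts, those of endothelium 0.0404%, of pericytes and smooth muscle 0.127%, of adipocytes 0.0111% and of Schwann cells 0.0157%. In these bulk cultures fewer cells of a type and less RNA per cell cannot be told apart.

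Igfbp7 was the most abundant member in every library, with 2149.8, 2230.1 and 2256 CPM in the BALB/c libraries and 2004, 2488 and 2280.3 CPM in those of C57BL/6. It ranked 54 of the 12023 genes by mean CPM. Its mean over the 6 libraries was 13.8 times that of Igf2r, the next gene, and their ranges did not overlap. Below Igfbp7 came Igf2r with a mean of 162 CPM, Igfbp4 with 144 CPM, Igfbp6 with 73.9 CPM, Igfbp2 with 50.4 CPM, Igfbp3 with 46.3 CPM, Igfbp5 with 36.3 CPM and Igf1r with 20.0 CPM. The ranges of every neighbouring pair below Igfbp7 overlapped. Igf2r was above Igfbp4 in 3 of 6 libraries, Igfbp6 above Igfbp2 in 3, and Igfbp2 above Igfbp3 in 3, so the order of those pairs was not fixed by these data.

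**Figure D1:**
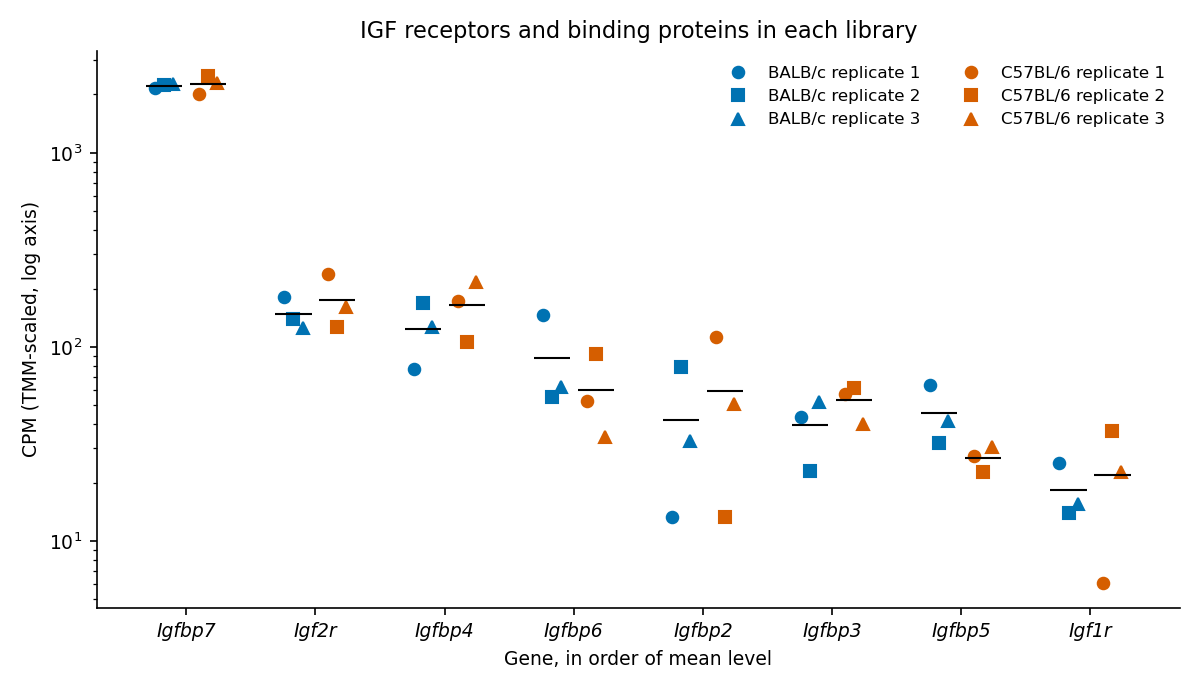
TMM-scaled CPM (log axis) of the 8 measured genes, in order of mean level. Each symbol is 1 library, colour gives the strain, shape the replicate, and the short bar the mean of 3 libraries. Igfbp7 lies between 2004 and 2488 CPM, while Igfbp2 runs from 13.3 to 113 CPM.

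No member differed between the strains past the threshold. Of the 8 members tested 0 had an adjusted p under 0.05 in the quasi-likelihood test of edgeR, adjusted by Benjamini-Hochberg over 8752 genes, where 0.206% of all tested genes passed. None of the 8 had an unadjusted p under 0.05, a level that 3.86% of all tested genes reached, and DESeq2 also called 0 of the 8 where it called 0.811% of its tested genes. The log2 difference, BALB/c minus C57BL/6, was above 0 in 2 members and below 0 in 6, where 51.1% of all tested genes were above 0, with a median of -0.25 against 0.014 for all tested genes. The lowest adjusted p of a member was 0.954 in edgeR, and 0.424 over the 17 alternative settings. These p-values measure the spread between the samples, which the design text names biological replicates. Summed pericyte and smooth muscle markers, 10 of 11 in the table, were at 0.0586% to 0.0751% of counts in BALB/c and 0.0988% to 0.127% in C57BL/6. Only Cnn1 and Actg2 among them separated the strains, as 11.4% of all tested genes did. The log2 differences of Cnn1 and Actg2 were -1.25 and -1.42, neither past the threshold. Each of the other markers in the table, such as Acta2, Mcam, Cspg4, Des and Myh11, overlapped. Summed macrophage and leukocyte markers overlapped between the strains. The 6 tested genes among them all had a log2 difference below 0, with a median of -0.90. Strains did not overlap for 2 of these, Cd68 and Fcer1g, and 0 passed the threshold. The part of either set of markers in the members' differences was not tested.

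**Figure D2:**
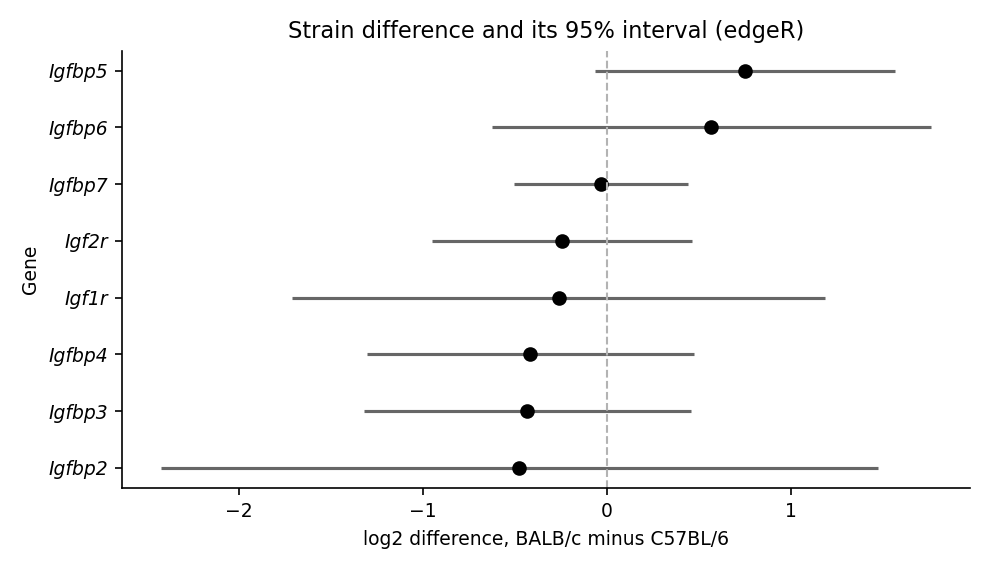
Log2 difference between the strains (BALB/c minus C57BL/6) of the 8 measured genes from edgeR's quasi-likelihood fit. Points are estimates, lines are 95% intervals, and the dashed line marks no difference. All 8 intervals include 0, and that of Igfbp7, from -0.50 to 0.44, is the narrowest.

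The receptor for both ligands, Igf1r, was the lowest of the members by mean level. It had 25.3, 13.96 and 15.5 CPM in the BALB/c libraries and 6.11, 36.7 and 22.6 CPM in those of C57BL/6. The C57BL/6 libraries held both the lowest and the highest value, the lowest resting on 8 counts, so the strains overlapped. The means were 18.3 ± 6.18 CPM (SD, n = 3) for BALB/c against 21.8 ± 15.3 CPM (SD, n = 3) for C57BL/6. The log2 difference was -0.26 ± 0.62 (SE), with a 95% interval from -1.71 to 1.18. Differences of more than 2-fold in either direction remain within that interval. Without C57BL/6 replicate 2 the log2 difference was 0.27, and without C57BL/6 replicate 1 it was -0.69. With the epithelial marker share as a covariate it was -0.39 ± 0.46. Igf1r is at chr7:67952827-68233668 on the plus strand.

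Igf2r, the clearance receptor for IGF2 and sorting receptor for lysosomal enzymes, had 180.1, 139.6 and 124.8 CPM in the BALB/c libraries and 238, 127 and 161 CPM in those of C57BL/6. C57BL/6 replicate 1 was the highest, and the other 5 libraries were interleaved. The log2 difference was -0.24 ± 0.30, with a 95% interval from -0.95 to 0.46, and it was 0.026 without C57BL/6 replicate 1. Igf2r is at chr17:12682406-12769664 on the minus strand, and Airn, the antisense RNA of this imprinted region, overlaps the gene but none of its annotated exons. Its 6 values were steadier than those of most genes: the SD of log2 CPM over the libraries was 0.36, at percentile 30.5 of all tested genes.

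The genes whose values over the 6 libraries lay closest to those of Igf2r were Ndufaf3, Mrpl2 and Timm17b, all genes of mitochondrial proteins. Their log2 CPM, centred on each gene's own mean, differed from those of Igf2r by a root mean square of 0.0808, 0.0814 and 0.0864. With 6 libraries and 4506 genes compared, such closeness is a description only. M6pr, the smaller cation-dependent mannose 6-phosphate receptor, had 244 ± 33.7 CPM (SD, n = 3) for BALB/c against 259 ± 33.7 CPM (SD, n = 3) for C57BL/6, a log2 difference of -0.085 ± 0.23. Of 14 tested genes of mannose 6-phosphate sorting, Igf2r among them, 0 passed, where 0.206% of all tested genes did. The median log2 difference of the 14 was -0.12.

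Igfbp7 was the steadiest member after TMM scaling. The SD of its log2 CPM over the 6 libraries was 0.10, at percentile 0.628 of all tested genes, where the median gene had 0.49. This percentile, like those given for Igf2r and Igfbp2, is not matched for level. Counting noise is smaller at high counts, and Igfbp7 had 2331 to 11175 counts per library. The means were 2212 ± 55.3 CPM (SD, n = 3) for BALB/c against 2257 ± 242 CPM (SD, n = 3) for C57BL/6, and the log2 difference was -0.029 ± 0.20. The 95% interval of the BALB/c to C57BL/6 ratio ran from 0.706 to 1.36. The sign of this difference turned with scaling, to 0.031 with upper quartile scaling and 0.040 with library totals alone, so no direction can be given. Among the closest genes in pattern were Kifbp and Tnfaip1, with root mean square differences of 0.0390 and 0.0486 on the log2 scale.

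The gene is at chr5:77349240-77408041 on the minus strand, and its 3′ end runs into that of Polr2b, which codes for the second largest subunit of RNA polymerase II. The last exons of both genes share 85 bases, chr5:77349240-77349324, on opposite strands. The sources used here do not give whether counting used the strand. Polr2b had 26 to 246 counts per library, or 0.991% to 2.54% of those of Igfbp7, and a log2 difference of 0.38 ± 0.39. Without strand, reads of the shared bases cannot be assigned to either gene, and the part of this overlap in the counts of Igfbp7 was not tested.

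After TMM scaling the total of binding protein message varied little between libraries, and most of it was Igfbp7. The 6 genes summed to 2493, 2587 and 2571 CPM in the BALB/c libraries and to 2428, 2784 and 2652 CPM in those of C57BL/6. Without TMM scaling they made up 0.209% of all counts in C57BL/6 replicate 1, whose TMM factor was 0.866. In the other libraries they made up 0.256% to 0.279%. Igfbp7 made up 82.6% (exact 95% interval 81.2% to 83.9%) of these counts in C57BL/6 replicate 1, the lowest share, and 89.4% (88.3% to 90.4%) in C57BL/6 replicate 2, the highest. In the other 4 libraries its share lay between 86.0% and 87.7%. The intervals cover counting error only.

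The remaining 5 binding proteins summed to 338 ± 20.96 CPM (SD, n = 3) for BALB/c against 364 ± 63.9 CPM (SD, n = 3) for C57BL/6. Their makeup varied far more than their sum. Igfbp4 was the largest of the 5 in every library except BALB/c replicate 1, where Igfbp6 was larger. Igfbp2 had the smallest level of all measured members in BALB/c replicate 1 and C57BL/6 replicate 2, and the second largest of the 5 in the libraries with the highest epithelial share of counts, BALB/c replicate 2 and C57BL/6 replicate 1, and in C57BL/6 replicate 3.

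**Figure D3:**
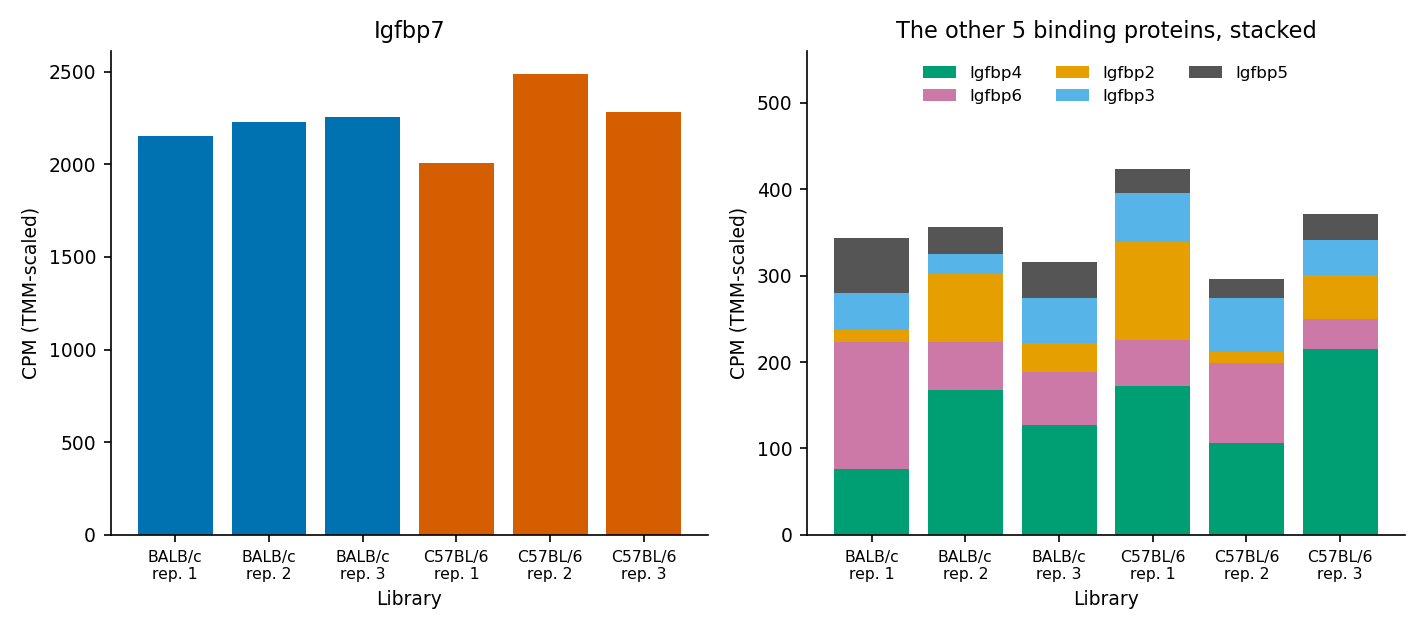
TMM-scaled CPM of Igfbp7 (left, coloured by strain) and of the other 5 binding proteins stacked (right, on a smaller scale) in each of the 6 libraries. The bars of Igfbp7 lie between 2004 and 2488 CPM, while the Igfbp2 part of the right stacks is 13.3 CPM in BALB/c replicate 1 and C57BL/6 replicate 2 and 113 CPM in C57BL/6 replicate 1.

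Igfbp2, a binding protein made by epithelium and by precursors of fat cells, was the most variable member. It had 13.3, 79.1 and 32.9 CPM in the BALB/c libraries and 113, 13.3 and 51.0 CPM in those of C57BL/6, an 8.51-fold range. Each strain had 1 library near 13 CPM and 2 higher ones, and these low libraries were those with the fewest epithelial marker counts. The SD of log2 CPM was 1.26, at percentile 89.4 of all tested genes. The log2 difference between the strains was -0.48 ± 0.83, with a 95% interval from -2.42 to 1.47. The sign was not stable: the difference was 0.34 without C57BL/6 replicate 1 and 0.070 ± 0.37 with the epithelial marker share as a covariate. Igfbp2 is at chr1:72824503-72852474 on the plus strand.

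Of the 8 members 4 had levels in BALB/c replicate 1 and C57BL/6 replicate 2 that did not overlap those in the other 4 libraries, a pattern that 31.2% of all tested genes shared. Igfbp2 and Igfbp4 were lower in the libraries with few epithelial marker counts. Igfbp6 and Igf1r were higher there. The sum of fibroblast markers was also higher there, at 1.20% and 1.29% of counts against 0.217% to 0.823% in the other 4. Of these markers S100a4 went the other way, with its lowest values there, 48.0 and 70.3 CPM. Pdgfra and Pdgfrb overlapped, and the remaining fibroblast markers in the table were each higher there. The split of the libraries was seen in the data and is no group of the study, and the part of epithelial or fibroblast content in these levels was not tested. Between BALB/c replicate 1 and C57BL/6 replicate 2, 1 library each and so with no replicate check, the log2 difference was 0.0058 for Igfbp2, -0.54 for Igf1r, -0.47 for Igfbp4, 0.67 for Igfbp6, 0.51 for Igf2r, 1.48 for Igfbp5, -0.51 for Igfbp3 and -0.21 for Igfbp7. Between the means of the 2 other libraries of each strain it was -0.55, 0.034, -0.40, 0.42, -0.60, 0.34, -0.37 and 0.066 for the same genes in that order. The sign differed between these comparisons for Igfbp2, Igf1r, Igf2r and Igfbp7. The 3 genes closest to Igfbp2 in pattern, named after their values were seen, were Id1, Smim22 and Spint2, at root mean square differences of 0.199, 0.203 and 0.252. Spint2 codes for a protease inhibitor of epithelia and Id1 for an inhibitor of DNA binding by helix-loop-helix factors.

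**Figure D4:**
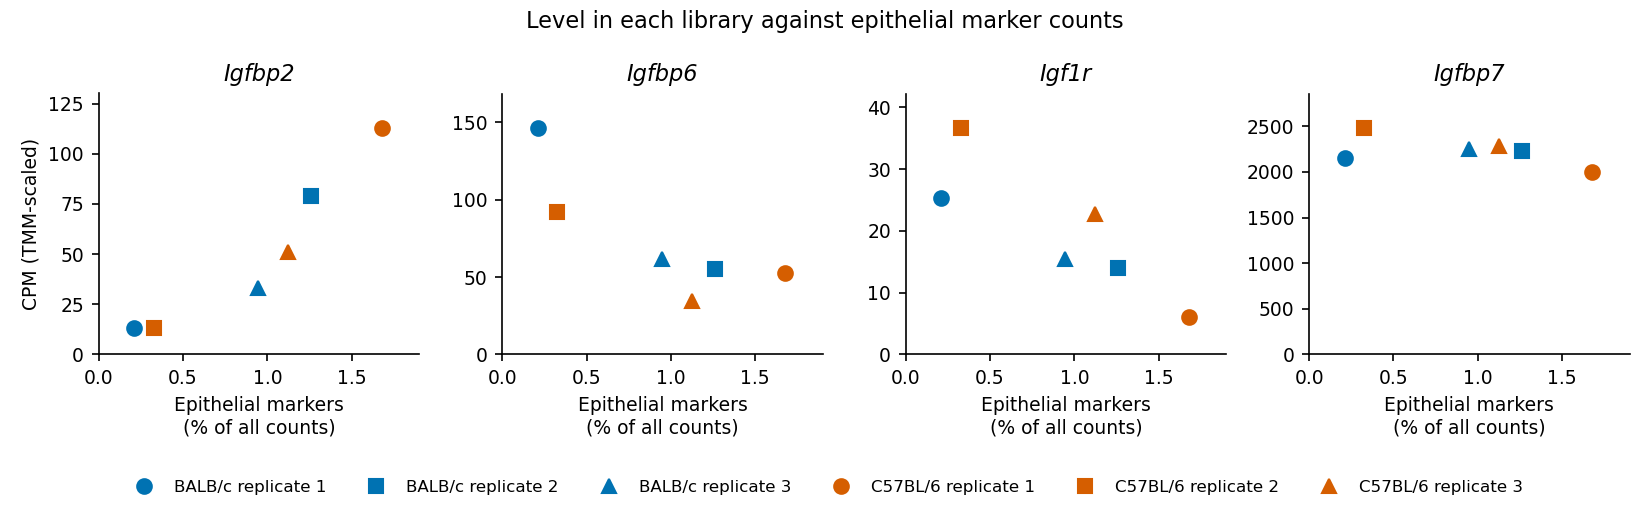
TMM-scaled CPM of Igfbp2, Igfbp6, Igf1r and Igfbp7 (vertical axes, each from 0) against the percent of all counts in mammary epithelial markers (horizontal axis), 1 symbol for each of the 6 libraries. Igfbp2 is at 13.3 CPM in both libraries with under 0.4% and at 32.9 to 113 CPM in the others, while Igfbp7 stays between 2004 and 2488 CPM.

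Igfbp4, a binding protein that holds back IGF action and is cut by the protease PAPP-A, had 76.7, 168 and 127 CPM in the BALB/c libraries and 173, 106 and 215 CPM in those of C57BL/6. The strains overlapped, with the lowest value in BALB/c and the highest in C57BL/6. The log2 difference was -0.42 ± 0.38, with a 95% interval from -1.30 to 0.47. It was -0.27 ± 0.24 with the epithelial marker share as a covariate. Without BALB/c replicate 1 it was -0.17, without C57BL/6 replicate 3 it was -0.19, without BALB/c replicate 2 it was -0.70 and without C57BL/6 replicate 2 it was -0.63. The sign was negative in all 17 alternatives, none of which passed the threshold. The last 500 bases of the Igfbp4 transcript hold a stretch of at least 60 bases at 95% identity or more with transcripts of 6 other genes, so its counts may be affected by how reads with several matches were treated. Igfbp4 is at chr11:99041244-99054392 on the plus strand.

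Igfbp6, which prefers IGF2 over IGF1, had 147, 55.1 and 61.9 CPM in the BALB/c libraries and 52.7, 92.2 and 34.5 CPM in those of C57BL/6. The highest value of each strain was in its library with few epithelial marker counts. The means were 87.9 ± 51.0 CPM (SD, n = 3) for BALB/c against 59.8 ± 29.5 CPM (SD, n = 3) for C57BL/6, and the log2 difference was 0.57 ± 0.51, with a 95% interval from -0.63 to 1.76. This difference rested on BALB/c replicate 1, without which it was -0.030. It also fell to 0.26 without C57BL/6 replicate 3, and to 0.29 ± 0.30 with the epithelial marker share as a covariate. It rose to 1.03 without C57BL/6 replicate 2, and to 0.89 ± 0.39 in limma-voom with library quality weights. Igfbp6 is at chr15:102144362-102149511 on the plus strand.

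Igfbp5, which binds IGFs and matrix and is known from involution of the mammary gland, had 63.4, 31.9 and 41.6 CPM in the BALB/c libraries and 27.5, 22.7 and 30.6 CPM in those of C57BL/6. Every BALB/c library lay above every C57BL/6 library, although the lowest BALB/c value was close to the highest C57BL/6 value. It was the 1 member of 8 whose strains did not overlap, a property of 11.4% of all tested genes, and of 5.15% with BALB/c higher, so this count was near the background. The means were 45.6 ± 16.1 CPM and 26.9 ± 4.00 CPM (SD, n = 3 each). The log2 difference was 0.75 ± 0.35, with a 95% interval from -0.067 to 1.56 and an unadjusted p of 0.0669 (edgeR adjusted p = 0.954). The sign was positive in all 17 alternatives, with values from 0.32 to 0.96. The value of 0.96, without BALB/c replicate 2, was the one with an unadjusted p under 0.05, at 0.0420 (edgeR adjusted p = 0.991). Without BALB/c replicate 1 the log2 difference was 0.43.

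Igfbp5 is at chr1:72857932-72874884 on the minus strand, 5457 bases from Igfbp2, with the 3′ ends of both genes facing each other. The neighbours did not share a pattern. The ratio of Igfbp2 to Igfbp5 counts was 0.211, 2.48 and 0.791 in the BALB/c libraries and 4.11, 0.586 and 1.67 in those of C57BL/6. It was below 1 in both libraries with few epithelial marker counts and in BALB/c replicate 3.

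Igfbp3, the main carrier of IGFs in blood and a gene of stroma in the gland, had 43.4, 22.9 and 52.3 CPM in the BALB/c libraries and 57.3, 61.7 and 40.0 CPM in those of C57BL/6. The strains overlapped, and BALB/c replicate 2 was the lowest library. The log2 difference was -0.43 ± 0.38, with a 95% interval from -1.32 to 0.46, and -0.15 without BALB/c replicate 2. Igfbp3 is at chr11:7206086-7213923 on the minus strand, 3539 bases from Igfbp1, which was not analysed here.

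Of the other ligand and handling genes of the family, Igf2 could be tested. This second ligand had 14.7, 22.2 and 14.5 CPM in the BALB/c libraries and 29.0, 11.7 and 25.9 CPM in those of C57BL/6. Its strains overlapped, and the log2 difference was -0.37 ± 0.44. Igf2bp2, which binds the messenger RNA of Igf2 and many others, had a log2 difference of 0.072 ± 0.37. Of 11 listed genes of the family 6 were in the table and these 2 passed the filter. The insulin receptor gene Insr had 0 to 19 counts per library and was too low to test. Igfals, the acid-labile subunit of the circulating IGF complex, had 1, 0 and 1 counts in BALB/c and 8, 7 and 19 in C57BL/6. These did not overlap as CPM, but the gene was also below the filter.

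Among proteases that cut binding proteins and their inhibitors, 1 of 14 tested genes passed, in a comparison where 0.0686% of all tested genes passed as higher in BALB/c. This was Plau, the urokinase that activates plasminogen, with 40.0, 97.4 and 77.4 CPM in the BALB/c libraries and 2.29, 4.69 and 4.08 CPM in those of C57BL/6. The log2 difference was 4.24 ± 0.48 (edgeR adjusted p = 0.0275). The call was lost without BALB/c replicate 2 (0.193), BALB/c replicate 3 (0.265), C57BL/6 replicate 2 (0.121) or C57BL/6 replicate 3 (0.284), as adjusted p from edgeR, with limma-voom (0.175), with the replicate number as a block (0.326), and in the 4 libraries richer in epithelial markers (0.108), while the log2 difference stayed between 3.94 and 4.65 in every alternative.

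None of the remaining 13 passed. Over all 14 genes the median log2 difference was -0.18, with 4 above 0 and 10 below 0. The strains did not overlap for 2 of the 14, Plau and Plat, a property of 11.4% of all tested genes. Plat went the other way from Plau, with a log2 difference of -0.73 ± 0.25 (edgeR unadjusted p = 0.0224, adjusted p = 0.954). Pappa, which codes for PAPP-A, had 11.3, 0.716 and 10.6 CPM in the BALB/c libraries and 0.764, 11.7 and 9.39 CPM in those of C57BL/6, and was singled out with these values known. It was near 1 CPM in 1 library of each strain, and its log2 difference was -0.063 ± 1.05. Each of these low values rests on 1 or 2 counts.

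Downstream of the receptors no listed gene passed, in a comparison where 0.206% of all tested genes did. Counts of 0 in lists of this size are thus near the background. Of 15 tested adaptors and negative regulators 0 passed, with a median log2 difference of 0.058. Nedd4, a ubiquitin ligase, and Ptpn11, the phosphatase SHP2, were the most abundant of them, with log2 differences of 0.19 ± 0.27 and 0.34 ± 0.54. Of 23 genes of PI3K, AKT and mTORC1 signalling 0 passed, with a median of 0.017. Akt1, a kinase activated by IGF1R, had 610.3, 606 and 622 CPM in the BALB/c libraries and 1564, 614 and 779 CPM in those of C57BL/6. C57BL/6 replicate 1, the library that stood apart, lay far above the rest, and the log2 difference was -0.68 ± 0.37 (edgeR adjusted p = 0.954). Eif4ebp1, a translation repressor that mTORC1 inactivates, had a log2 difference of -0.074 ± 0.42.

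FoxO factors are kept out of the nucleus by AKT. Of 12 tested FoxO genes and targets 0 passed, where 0.206% of all tested genes did, with a median log2 difference of 0.074. The transcription regulators Cited2 and Klf6 had log2 differences of 0.24 ± 0.27 and 0.14 ± 0.25. Growth hormone raises Igf1 in many tissues through JAK2 and STAT5. Of 5 tested genes of that axis 0 passed, against the same share of 0.206%. Their median log2 difference was -0.51, where all tested genes had 0.014. Jak2 had a log2 difference of -0.12 ± 0.30 and Stat5b one of -0.69 ± 0.35 (edgeR adjusted p = 0.954).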

How the data were processed

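The values used are whole-number counts per gene, deposited by the authors for 6 libraries in 1 table. The tools bcl2fastq, STAR 2.4.2a and HTSeq and the build mm10 are named, per the submitters' processing notes. The sources used here do not give the annotation, the strand setting, or how reads with several matches and molecular identifiers were handled. Columns were matched to samples by library name. The reference is of the C57BL/6 strain, so alignment may lose more BALB/c reads.

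The strains were compared in edgeR 4.0.16 (R 4.3.3): filterByExpr by strain (8752 genes kept), TMM scaling, robust quasi-likelihood fit with strain as the only term, 2-sided, Benjamini-Hochberg adjustment over all tested genes, threshold 0.05. The standard error is the log2 difference divided by the square root of F. Log2 CPM used a prior count of 2. Alternatives used DESeq2 1.42.0 and limma 3.58.1, other scalings and filters, a replicate block, a covariate and each library left out. The fit was tested on simulated data. Libraries of a strain differed beyond sampling noise (chi-square per degree of freedom of at least 10.8), so they were not repeat draws from 1 library. Each counted as 1 replicate because the design text names the samples biological replicates.

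The members and gene lists were chosen with earlier results of these data known. From each pathway list the text names at most 2 called genes in each direction, and the 2 most abundant tested genes by mean log2 CPM if none was called. Pappa, Plat, Insr and Igfals were named outside this rule. Genes of like pattern were named for the 2 members with the highest mean, among tested genes averaging 5 or more in log2 CPM; those of Igfbp2 fall outside this rule and were chosen after their values were seen. The rule also named Igf1, which was not analysed here, and 1 gene of like pattern that is not reported here. Positions are from GENCODE M21 on GRCm38, and copies were searched with BLAST+ 2.17.0.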

Additional observations from a re-analysis of the deposited data

How the results depend on the processing

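None of the 8 members passed the threshold in any of the alternatives run, and Igf1r was below the filter at a mean of 50 counts. The signs of Igfbp3, Igfbp4 and Igfbp5 held in all 17. Leaving out 1 library gave log2 differences of -0.69 to 0.27 for Igf1r, -0.41 to 0.026 for Igf2r, -1.37 to 0.34 for Igfbp2, -0.69 to -0.15 for Igfbp3, -0.70 to -0.17 for Igfbp4, 0.43 to 0.96 for Igfbp5, -0.030 to 1.03 for Igfbp6 and -0.12 to 0.058 for Igfbp7. Igfbp7 also changed sign with upper quartile scaling (0.031), library totals alone (0.040), a mean of at least 50 counts (0.014) and the 4 libraries richer in epithelial markers alone (0.056), an alternative chosen after seeing the data, and Igfbp2 with the epithelial covariate (0.070). The log2 ratio of the summed binding proteins, -0.039, was 0.032 with library totals alone, 0.0060 without C57BL/6 replicate 2 and -0.092 without C57BL/6 replicate 1, so it has no fixed direction.

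Over all genes edgeR called 18, 6 higher and 12 lower in BALB/c. Library totals alone gave 11 (5 higher, 6 lower), DESeq2 71 (25 and 46), limma-voom 3 (1 and 2), and limma-voom with library quality weights 57 (25 and 32). Leaving out 1 library gave 0 to 25 genes, 0 to 9 higher and 0 to 16 lower; it was 0 for 3 libraries, BALB/c replicates 2 and 3 and C57BL/6 replicate 3, with 205, 226 and 261 at an unadjusted p under 0.05. The 4 libraries richer in epithelial markers gave 0 in edgeR, with 308 at an unadjusted p under 0.05. Among other pathway genes the count of 1 became 0 with limma-voom, the replicate block and those 4 libraries, and 0 to 1 with a library left out. The cause of these changes was not tested.

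With the replicate number as a block edgeR called 0 genes, 0 higher and 0 lower, and 158 had an unadjusted p under 0.05. Same-numbered libraries correlated at -0.42, -0.40 and -0.077 in their deviations from the strain means, and none correlated best with its own number. The highest value of any pair, 0.58, joined the libraries with few epithelial marker counts. Such values follow culture makeup too, so they cannot decide whether same-numbered libraries shared a preparation, which was not tested. Depth limits Igf1r, with 8 counts in C57BL/6 replicate 1, and Igfbp2, with 17 in C57BL/6 replicate 2.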

Other observations

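Airn, the imprinted antisense RNA that starts within Igf2r, had 1, 4 and 1 counts in the BALB/c libraries and 2, 8 and 17 counts in those of C57BL/6. It was below the filter on low counts and was not tested.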
